A study of Mus musculus with 8 samples.

Results

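The genes described here are 10 genes grouped under steroid hormone synthesis: Cyp11a1, Hsd3b1, Akr1cl, Star, Cyp17a1, Hsd17b1, Akr1c18, Fdx1, Cyp19a1 and Nr5a1. They were chosen because several of them stood higher in macrophages without the mineralocorticoid receptor, and the others were added as further steps of the same pathway. Every probe set annotated to one of them was taken, and 15 probe sets of 9 genes were found among 45037 probe sets of 18193 genes on the array. Cyp19a1, the aromatase that makes oestrogens, has no probe set in the annotation used and was not analysed here. The values that chose the genes are those of knockout against control cells, so that comparison is given for them as a description without a test.

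Peritoneal macrophages of C57BL6/J mice, all labelled male, were drawn by 3% thioglycolate, collected 4 days later, selected by adherence in medium with 10% serum, and kept for 24 hours with 1 µM corticosterone or without it. The knockout (KO) cells are labelled MR fl / fl, LysM cre, so the floxed receptor gene Nr3c2 is cut by a Cre expressed in the myeloid lineage. The control cells are labelled MR fl / fl and carry the same floxed alleles with no Cre named. There were 4 groups of 2 arrays: KO with corticosterone, KO untreated, control with corticosterone and control untreated. Each sample was pooled from experiments run in triplicate, and how many mice went into a pool is not stated. The titles call the 2 samples of a group biological replicates. Nothing says that they came from separate mice, so p-values speak only of the variation between samples, possibly a technical one. The number of arrays limits the precision.

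Steroid hormones are made from cholesterol. Star brings cholesterol to the inner membrane of mitochondria, where the side chain cleavage enzyme Cyp11a1, fed with electrons by the ferredoxin Fdx1, makes pregnenolone. Enzymes of the Hsd3b family turn pregnenolone into progesterone, Cyp17a1 leads on to androgens, Hsd17b1 activates oestrogens, and Akr1c18 inactivates progesterone. Nr5a1, also called steroidogenic factor 1, is a nuclear receptor that drives many of these genes in the gonads and the adrenal cortex. Ovary, testis and adrenal cortex are the classical sites of the whole pathway.

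Values are log2 expression levels from RMA, a method that subtracts background, aligns the arrays and summarises the probes of a set. They carry no detection call, and levels of different probe sets were not compared with each other. Control untreated replicate 2 stood apart: the median of its correlations with the rest was 0.919, where the other 7 had 0.994 to 0.995. On that array the 3′ probe set of Actb exceeded the 5′ one by 2.18 log2 units, against 0.41 to 0.62 on the others. The differences below come from a fit of the other 7 arrays unless 8 arrays are named, and control untreated is then 1 array, taken to vary as much as the arrays of the other 3 groups do. Xist, the RNA of the inactive X chromosome in females, has 3 probe sets. Its probe set 1427262_at read 10.85 to 11.12 on the 7 arrays and 9.96 on control untreated replicate 2, and 1436936_s_at read 12.05 to 12.27 on the 7 and 12.14 on that one. Eif2s3y, a gene of the Y chromosome, read 4.31 to 5.6 on the 7 arrays and 10.06 on control untreated replicate 2, on 1 of its 2 probe sets. Among the 7 it was 4.83 to 5.6 in KO cells and 4.31 to 4.46 in control cells, a difference of 0.76 with corticosterone (SE 0.21, limma adjusted p = 0.262). These readings go against the label male on 7 of the 8 arrays. On control untreated replicate 2 Xist read high beside Eif2s3y, so its readings do not plainly match that label either. Why was not tested. The remaining probe sets of Xist and Eif2s3y, and those of the Y genes Kdm5d and Uty, are not given here. Macrophage markers were the check of the cell label: the mean of 10 markers was 11.80 to 12.11 on the 7 arrays and 11.05 on control untreated replicate 2.

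Nr3c2, the deleted gene on chromosome 8 (GRCm38.p6 chr8:76898083-77245012), read 5.11 and 5.47 in KO cells with corticosterone and 5.54 and 5.82 in untreated KO cells. Control cells read 6.39 and 6.13 with corticosterone, and 6.39 and 8.46 untreated, the last on the array that stood apart. All 4 KO arrays lay below all control arrays. The difference was -0.97 log2 units with corticosterone (SE 0.17, limma adjusted p = 0.0369) and -0.71 without hormone (SE 0.21, limma adjusted p = 0.194), and with 8 arrays the adjusted p with corticosterone was 1. The labels do not say whether this probe set lies in the deleted part of the gene.

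Of the 15 probe sets, 3 stood at least 1 log2 unit higher in KO cells, 1 each of Cyp11a1, Hsd3b1 and Akr1cl, and the same 3 did so with corticosterone and without it. Over the whole array 0.311% of probe sets stood that much higher with corticosterone and 0.364% without it, and since the genes were chosen on this contrast nothing is read from the count. The other 12 differed by between -0.15 and 0.39 log2 units with corticosterone, and by between -0.19 and 0.51 without hormone. The median over the 15 was 0.11 with corticosterone and 0.31 without, against -0.0088 and -0.0044 over all probe sets. In RNA from a whole culture, more cells of a type and more RNA per cell cannot be told apart.

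**Figure D1:**
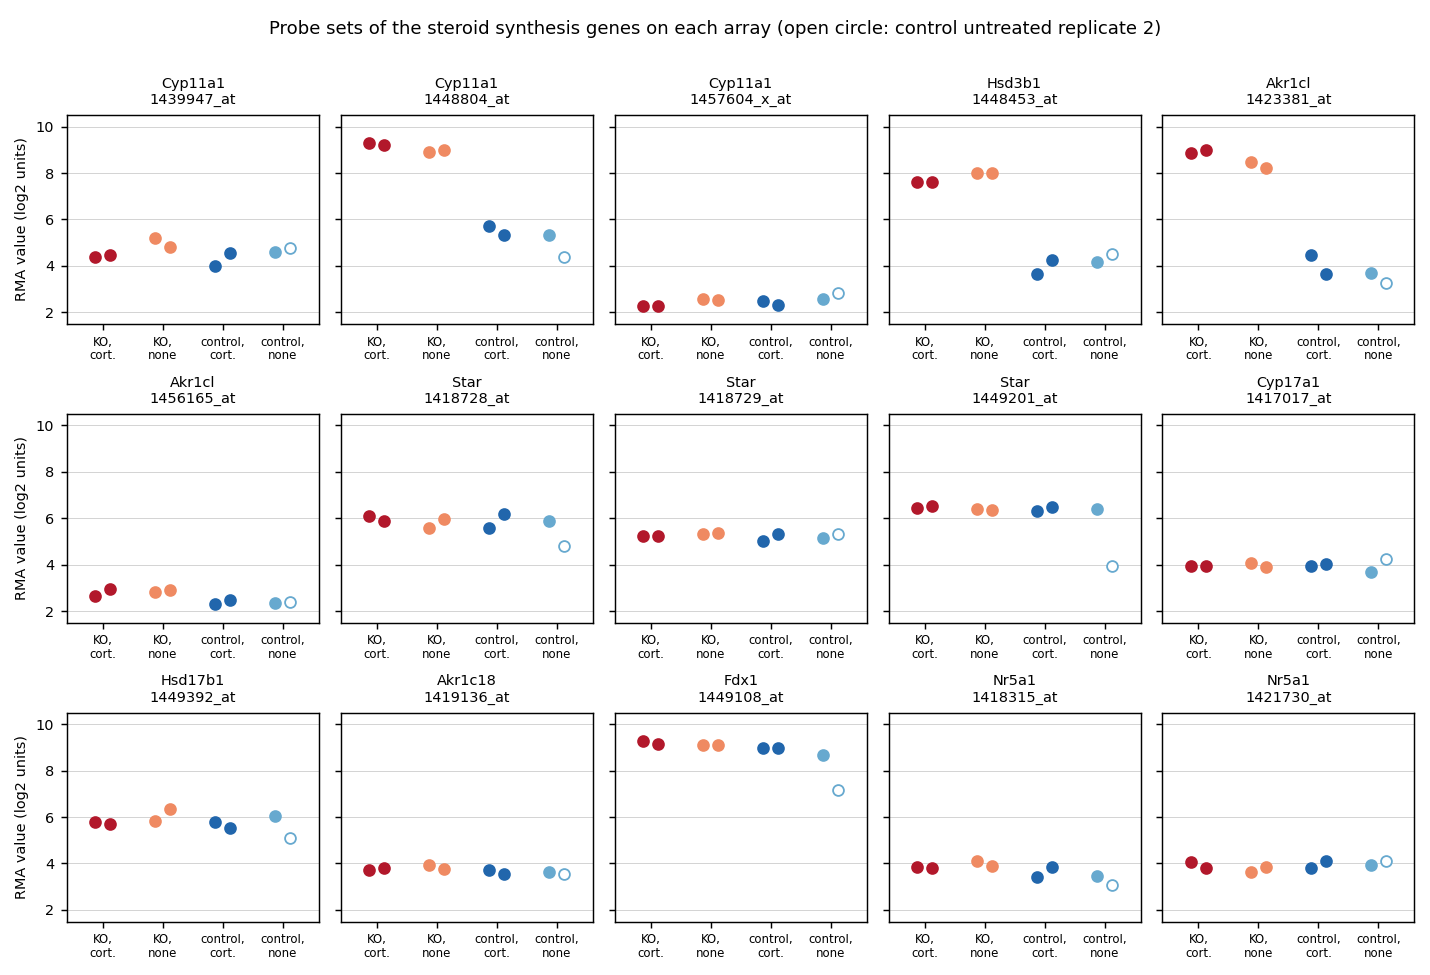
RMA values (log2 units, vertical axis) of the 15 probe sets, 1 panel each, with 1 point per array in KO cells with corticosterone, KO cells with none, control cells with corticosterone and control cells with none. The open circle is control untreated replicate 2. The panels of Cyp11a1 1448804_at, Hsd3b1 1448453_at and Akr1cl 1423381_at show 4 KO points far above every control point, and most other panels show overlapping groups.

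The promoters of these 3 genes are printed because their transcripts stood high together in KO cells. They are RefSeq windows of the build GRCm38.p6, from 250 bases before to 50 bases after a transcript's start, read 5′ to 3′ on the gene's strand. Cyp11a1 has 2 such windows, 1 at the outer start of the gene and 1 at a start inside it. Capitals mark matches to the binding site of NR5A receptors (CAAGGNCA), to the hexamer shared by many nuclear receptors (AGGTCA) or to the hexamer of corticosteroid receptors (AGAACA), searched on both strands.
Cyp11a1, outer start, chr9:57997774-57998073, plus strand: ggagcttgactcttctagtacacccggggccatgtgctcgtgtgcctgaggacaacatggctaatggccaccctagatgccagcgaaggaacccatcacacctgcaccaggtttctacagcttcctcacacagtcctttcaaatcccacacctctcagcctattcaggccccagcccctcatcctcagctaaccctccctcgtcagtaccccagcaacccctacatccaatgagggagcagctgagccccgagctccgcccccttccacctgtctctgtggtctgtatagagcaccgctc
Cyp11a1, inner start, chr9:58014702-58015001, plus strand: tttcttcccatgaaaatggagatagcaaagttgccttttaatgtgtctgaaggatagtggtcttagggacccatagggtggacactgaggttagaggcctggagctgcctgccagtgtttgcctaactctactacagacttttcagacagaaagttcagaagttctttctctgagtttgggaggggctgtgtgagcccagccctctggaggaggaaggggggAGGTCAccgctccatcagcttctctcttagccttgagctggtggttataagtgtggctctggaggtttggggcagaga
Hsd3b1, chr3:98859745-98860044, minus strand: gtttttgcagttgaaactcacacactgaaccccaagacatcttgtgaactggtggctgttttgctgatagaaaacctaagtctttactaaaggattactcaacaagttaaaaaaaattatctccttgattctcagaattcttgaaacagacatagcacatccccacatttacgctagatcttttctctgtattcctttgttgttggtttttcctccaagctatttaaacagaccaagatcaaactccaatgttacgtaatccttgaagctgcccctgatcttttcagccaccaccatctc
Akr1cl, chr1:65032710-65033009, minus strand: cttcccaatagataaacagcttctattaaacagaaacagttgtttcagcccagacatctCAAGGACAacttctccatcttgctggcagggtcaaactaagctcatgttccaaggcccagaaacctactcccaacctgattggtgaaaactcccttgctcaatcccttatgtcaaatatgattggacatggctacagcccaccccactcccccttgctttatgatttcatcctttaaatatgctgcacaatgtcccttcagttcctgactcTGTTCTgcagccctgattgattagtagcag

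The Akr1cl window held an NR5A site that begins at position -191 from the start, and a corticosteroid receptor hexamer, read on the other strand, that begins at position 20. The inner Cyp11a1 window held a nuclear receptor hexamer that begins at position -28. No match to the 3 marked motifs lay in the outer Cyp11a1 window or in the Hsd3b1 window. The NR5A letters occur in 6.71% of 32851 such mouse windows, the nuclear receptor hexamer in 16.3% and the corticosteroid receptor hexamer in 19.0%. The full corticosteroid receptor element, AGAACA and TGTTCT parted by 3 free bases, occurs in 0.00913% of windows and in none of those printed, and the cAMP response element, TGACGTCA, in 1.79% and in none of those printed. An NR5A site with N = T contains the nuclear receptor hexamer, so those matches can overlap. A match is a run of letters and shows no binding.

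Cyp11a1 lies on chromosome 9 (chr9:57998024-58027031) and has 3 probe sets, which disagreed. Its probe set 1448804_at read 9.30 and 9.19 in KO cells with corticosterone and 8.91 and 9.01 in untreated KO cells. Control cells read 5.72 and 5.33 with corticosterone and 5.35 untreated, with 4.40 on the array that stood apart. The lowest KO array lay 3.19 log2 units above the highest control array. The difference was 3.72 log2 units with corticosterone (SE 0.13), 13.2-fold, and 3.61 without hormone (SE 0.16), 12.2-fold. With 8 arrays the difference without hormone was 4.09.

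The other Cyp11a1 probe sets did not separate the genotypes. Probe set 1439947_at read 4.38 and 4.48 in KO cells with corticosterone and 5.21 and 4.82 in untreated KO cells, against 3.99 and 4.56 in control cells with corticosterone and 4.61 in untreated control cells. Its differences were 0.15 (SE 0.21) with corticosterone and 0.40 (SE 0.26) without. Probe set 1457604_x_at stayed between 2.26 and 2.57 on the 7 arrays, and its differences were -0.15 (SE 0.10) and -0.00 (SE 0.13). What transcript each set of probes matches was not tested, so the high level of Cyp11a1 rests on 1 of its 3 probe sets.

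Fdx1, the electron donor of Cyp11a1 (chr9:51943023-51963602), read high in every group. Its probe set gave 9.26 and 9.13 in KO cells with corticosterone and 9.11 and 9.10 in untreated KO cells, against 8.98 and 8.97 in control cells with corticosterone and 8.69 in untreated control cells. The 4 KO arrays lay above the 3 control arrays by 0.12 log2 units. The difference was 0.22 (SE 0.07) with corticosterone and 0.41 (SE 0.08), 1.33-fold, without hormone. The array that stood apart read 7.15, and with 8 arrays the difference without hormone came to 1.18.

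Hsd3b1, on chromosome 3 (chr3:98842356-98859794), has 1 probe set of its own. It read 7.60 and 7.62 in KO cells with corticosterone and 7.99 and 8.0 in untreated KO cells, against 3.67 and 4.26 in control cells with corticosterone and 4.16 in untreated control cells. The array that stood apart read 4.51, and the lowest KO array lay 3.33 log2 units above the highest of the 3 control arrays. The difference was 3.64 (SE 0.18), 12.5-fold, with corticosterone and 3.83 (SE 0.22), 14.3-fold, without hormone, or 3.66 without hormone with 8 arrays.

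Close relatives of Hsd3b1, enzymes that carry out related reactions, were named after their values were seen, since probes can read near-identical transcripts. With corticosterone Hsd3b2 differed by 0.30 log2 units, the probe sets of Hsd3b3 by 0.18 and 0.10, Hsd3b5 by 0.02 and Hsd3b7 by -0.04. A probe set shared by Hsd3b6, Hsd3b3 and Hsd3b2 differed by 0.23. With the hormone these relatives stayed within 0.30 log2 units of the controls, where Hsd3b1 differed by 3.64. Without hormone that shared probe set differed by 0.41, where Hsd3b1 differed by 3.83. A probe set shared by Hsd3b4, Gm4450 and Gm10681 differed by 0.03 with corticosterone and 0.30 without.

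Akr1cl (chr1:65013078-65032759) belongs to the aldo-keto reductases, a family that holds several steroid reducing enzymes. The labels do not give its substrate, so its step in steroid synthesis, if any, is not known here. Its probe set 1423381_at read 8.85 and 8.97 in KO cells with corticosterone and 8.48 and 8.21 in untreated KO cells, against 4.48 and 3.64 in control cells with corticosterone and 3.70 in untreated control cells. On the array that stood apart it read 3.28, and the lowest KO array lay 3.73 log2 units above the highest control array. The difference was 4.85 (SE 0.23), 28.8-fold, with corticosterone and 4.64 (SE 0.28), 25-fold, without hormone, or 4.86 without hormone with 8 arrays. Without a detection call for the control readings, this fold and those of Cyp11a1 and Hsd3b1 are ratios of RMA values and not exact ratios of RNA.

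The second Akr1cl probe set, 1456165_at, read between 2.64 and 2.94 on the KO arrays and between 2.31 and 2.49 on the 3 control arrays. The groups did not overlap and lay 0.15 apart. Its differences were 0.39 (SE 0.13) with corticosterone and 0.49 (SE 0.16) without hormone, far smaller than those of the other probe set. In all, 5 of 15 probe sets had every KO array above the 3 control arrays, and 4.07% of all probe sets did so. The genes were chosen on this contrast, so nothing is read from that count either.

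**Figure D2:**
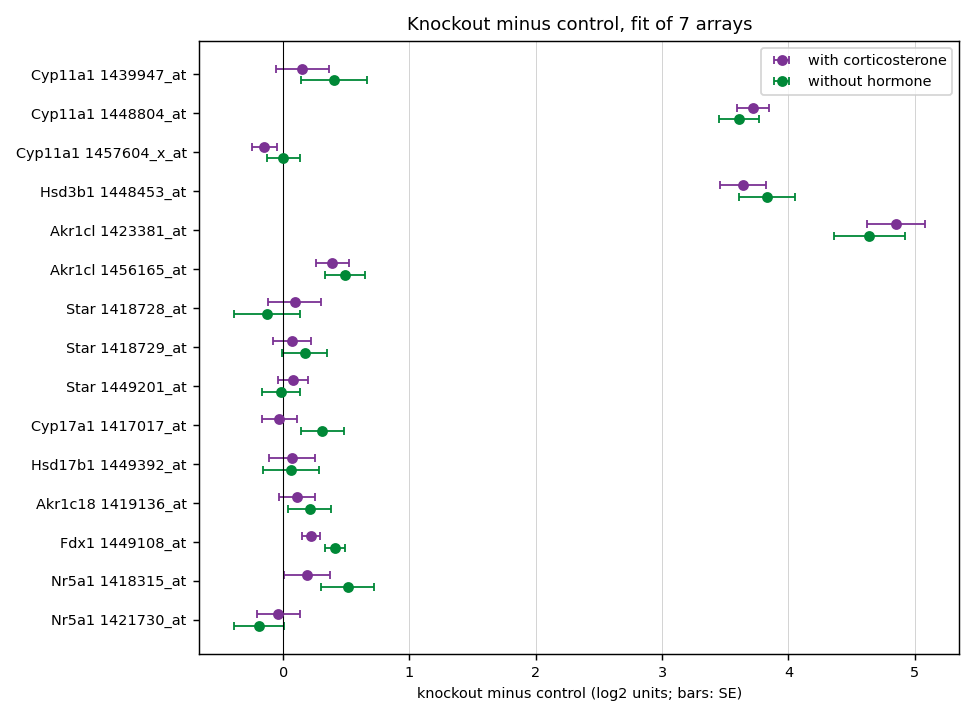
Difference of KO minus control (log2 units, horizontal axis) for each of the 15 probe sets from the fit of 7 arrays, with corticosterone and without hormone, bars being the SE. Probe sets 1448804_at, 1448453_at and 1423381_at lie between 3.61 and 4.85, and the other 12 lie between -0.19 and 0.51.

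For the step before Cyp11a1, the genotypes overlapped. Star (chr8:25808474-25815982) has 3 probe sets, and none of them set the KO arrays apart from the 3 control arrays. Probe set 1449201_at read 6.44 and 6.54 in KO cells with corticosterone and 6.40 and 6.37 in untreated KO cells, against 6.33 and 6.5 in control cells with corticosterone and 6.41 in untreated control cells. Its differences were 0.08 (SE 0.12) and -0.02 (SE 0.15), with and without corticosterone. Probe sets 1418728_at and 1418729_at differed by 0.09 (SE 0.21) and 0.07 (SE 0.15) with corticosterone, and by -0.13 (SE 0.26) and 0.17 (SE 0.18) without. With 8 arrays the difference of 1449201_at without hormone was 1.21, because the array that stood apart read 3.95 there.

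The genotypes also overlapped for the enzymes that lead on to androgens and oestrogens. Cyp17a1 (chr19:46667165-46673000) read 3.94 and 3.94 in KO cells with corticosterone and 4.08 and 3.88 in untreated KO cells, against 3.93 and 4.01 in control cells with corticosterone and 3.67 in untreated control cells. The groups overlapped, and the differences were -0.03 (SE 0.14) with corticosterone and 0.31 (SE 0.17) without. Hsd17b1 (chr11:101077968-101081188) read 5.78 and 5.68 in KO cells with corticosterone and 5.83 and 6.35 in untreated KO cells, against 5.78 and 5.54 in control cells with corticosterone and 6.03 in untreated control cells. Its groups overlapped too, with differences of 0.07 (SE 0.18) with corticosterone and 0.06 (SE 0.22) without, the last 0.53 with 8 arrays.

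Akr1c18, the enzyme that inactivates progesterone (chr13:4132615-4150646), read 3.72 and 3.79 in KO cells with corticosterone and 3.92 and 3.75 in untreated KO cells. Control cells read 3.73 and 3.55 with corticosterone and 3.63 untreated. The groups overlapped, and the differences were 0.11 (SE 0.14) with corticosterone and 0.21 (SE 0.17) without. Other enzymes of its family were set beside it after their values were seen. Akr1c6, Akr1c12, Akr1c13, Akr1c19 and Akr1c21 differed by 0.20, 0.01, -0.04, 0.21 and -0.04 log2 units with corticosterone, and the probe sets of Akr1c20 by -0.27 and 0.11, whereas Akr1c14 stood 1.84 higher.

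Nr5a1, the factor that drives the pathway in gonads (chr2:38692656-38714542), has 2 probe sets. Probe set 1418315_at read 3.84 and 3.80 in KO cells with corticosterone and 4.11 and 3.88 in untreated KO cells, against 3.40 and 3.87 in control cells with corticosterone and 3.48 in untreated control cells. It differed by 0.19 (SE 0.18) with corticosterone and 0.51 (SE 0.21) without, 0.72 with 8 arrays, and the groups overlapped. Probe set 1421730_at went slightly the other way, by -0.04 (SE 0.17) and -0.19 (SE 0.20).

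Corticosterone itself was tested in each genotype, a comparison that did not choose the genes. In KO cells 0 of the 15 probe sets passed limma's test at an adjusted p under 0.05, where 9.14% of all probe sets passed, and 3 of 15 had an unadjusted p under 0.05 against 20.4% of all. The differences ran from -0.59 to 0.56 log2 units with a median of -0.07. Akr1cl 1423381_at stood 0.56 higher with the hormone in KO cells (SE 0.23, limma adjusted p = 0.199), and both treated arrays lay above both untreated ones. Cyp11a1 1448804_at stood 0.28 higher (SE 0.13, limma adjusted p = 0.25) and Hsd3b1 0.39 lower, at -0.39 (SE 0.18, limma adjusted p = 0.26).

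The smallest adjusted p in KO cells, 0.139, belonged to Cyp11a1 1439947_at, which differed by -0.59 (SE 0.21). In a fit of the KO arrays alone Akr1cl 1423381_at and Hsd3b1 passed, at adjusted p = 0.0172 and 0.0399. Leaving out either control corticosterone array let Akr1cl pass, at adjusted p = 0.0441 without replicate 1 and 0.0408 without replicate 2. Leaving out KO untreated replicate 1 let Hsd17b1 pass instead, at -0.62 and adjusted p = 0.0477.

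In control cells 0 of the 15 probe sets passed limma's test for corticosterone, where 6.79% of all probe sets passed, and 1 of 15 had an unadjusted p under 0.05 against 18.1% of all. That 1 was Fdx1, 0.28 log2 units higher with the hormone (SE 0.08, limma adjusted p = 0.0719). The differences ran from -0.37 to 0.36, with a median of 0.02. Cyp11a1 1448804_at differed by 0.17 (SE 0.16), Hsd3b1 by -0.19 (SE 0.22) and Akr1cl 1423381_at by 0.36 (SE 0.28). With 8 arrays 0 of 15 passed in either genotype, but that fit called very few probe sets at all. Of all 45037 it called 23 higher and 3 lower in KO cells, and 24 higher and 4 lower in control cells. Nothing is read from its 0. A p that misses the threshold does not show that the hormone left these transcripts as they were.

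**Figure D3:**
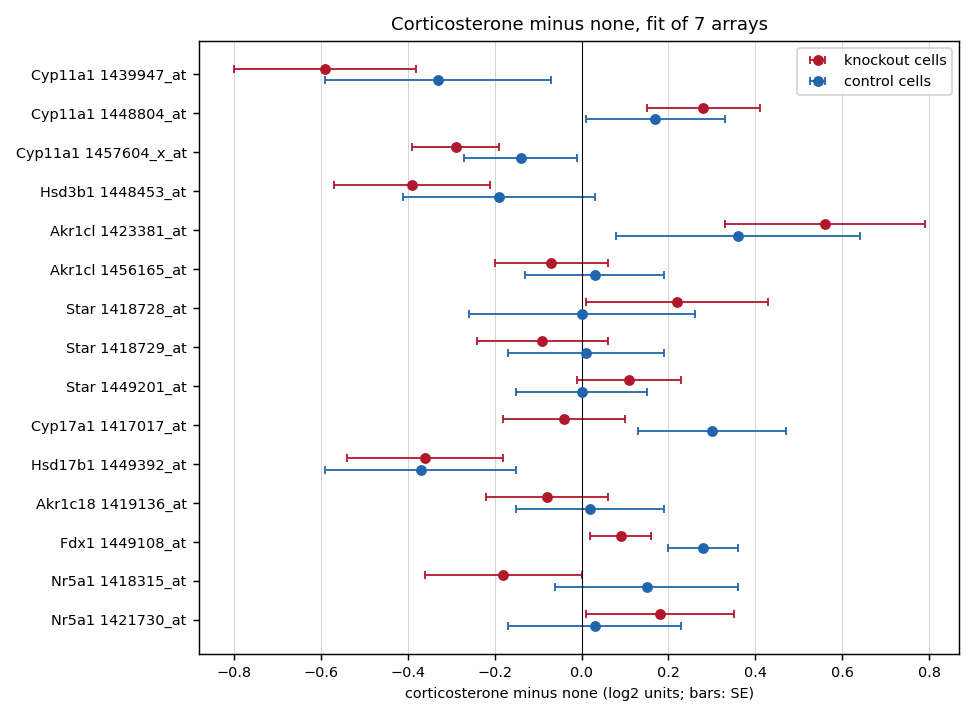
Difference of corticosterone minus none (log2 units, horizontal axis) for the 15 probe sets, in KO cells and in control cells, from the fit of 7 arrays, bars being the SE. Every difference lies between -0.59 and 0.56, a far narrower range than the 3.61 to 4.85 by which the genotypes differed for the 3 high probe sets.

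The rest of the pathway was read from 4 lists of 75 genes, of which 63 had a probe set. These lists were drawn up with earlier results of these data known, so nothing is read from their counts. With corticosterone 4 of the 63 genes rose in KO cells and 0 fell by limma's test, and at an unadjusted p under 0.05 the counts were 10 higher and 13 lower. Over the array 1.21% of genes rose and 0.335% fell, and of probe sets 0.619% rose and 0.175% fell. Of the enzymes and electron carriers 1 of 21 rose, Akr1c14, a 3-alpha-hydroxysteroid dehydrogenase that reduces steroid ketones. It read 4.8 and 4.26 in KO cells and 2.54 and 2.84 in control cells, all with corticosterone, a difference of 1.84 (SE 0.22, limma adjusted p = 0.00334). Without hormone the difference was 0.87 (SE 0.27, limma adjusted p = 0.21). On the array that stood apart Akr1c14 read 5.54, above every KO array, so with 8 arrays the difference without hormone turned to -0.45, and the adjusted p with corticosterone was 1.

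Of 14 genes for cholesterol supply to mitochondria 0 passed in either direction, with 1 higher and 4 lower at an unadjusted p under 0.05 by limma. The list of hormone receptors held Fshr as its one gonadotrophin receptor with a probe set and no probe set of Lhcgr or of the prolactin receptor Prlr. Of its 9 measured genes 0 passed, with 1 higher and 0 lower at that p. Fshr, the receptor for follicle stimulating hormone, differed by 0.07 (SE 0.20), and Mc2r, the ACTH receptor, by 0.02 (SE 0.12). The adrenal enzymes Cyp11b1, which makes corticosterone, Cyp11b2, which makes aldosterone, and Cyp21a1, which both need, were not among the genes that passed. Cyp11b1 differed by -0.40 (SE 0.12, limma adjusted p = 0.302), Cyp11b2 by 0.06 (SE 0.13), and the probe sets of Cyp21a1 by -0.18 (SE 0.16) and 0.08 (SE 0.13). Hsd17b3, which makes testosterone in the testis, differed by 0.02 (SE 0.12). Lhcgr, Prlr, Fdxr and Hsd3b6 have no probe set of their own in the annotation and were not analysed here.

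Of 19 regulators 3 rose with corticosterone: Nr5a2, Gata4 and Foxl2. All 3 are also on the list of granulosa cell markers given below. Nr5a2, the nearest relative of Nr5a1 and a nuclear receptor of the ovary and liver, read 5.94 and 6.06 on probe set 1456521_at in KO cells with corticosterone and 5.89 and 5.98 in untreated KO cells. Control cells read 2.95 and 2.96 with corticosterone and 3.33 untreated, and 5.38 on the array that stood apart. The KO arrays all lay above the 3 control arrays, and the difference was 3.05 (SE 0.14, limma adjusted p = 5.33e-06) with corticosterone and 2.60 (SE 0.17, limma adjusted p = 8.34e-05) without.

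The other 3 Nr5a2 probe sets differed by 1.53 (SE 0.29), 0.42 (SE 0.12) and 0.35 (SE 0.17) with corticosterone, at limma adjusted p = 0.0529, 0.304 and 0.648. All 4 pointed the same way. With 8 arrays the adjusted p of 1456521_at was 1 with corticosterone and 0.516 without, and its difference without hormone came to 1.58.

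Gata4, a zinc finger factor of the gonads and heart, differed by 0.80 (SE 0.13, limma adjusted p = 0.0241) with corticosterone and 1.07 (SE 0.16, limma adjusted p = 0.0154) without, on 1 of its 2 probe sets. Foxl2, a forkhead factor of the ovary, differed by 0.93 (SE 0.15, limma adjusted p = 0.0235) with corticosterone and 0.51 (SE 0.19, limma adjusted p = 0.297) without, also on 1 of 2 probe sets. Foxl2 read 4.57 on the array that stood apart, above every KO array, and its difference without hormone was 0.17 with 8 arrays. Leaving out any 1 of the 4 corticosterone arrays ended both calls with corticosterone, at adjusted p of 0.103 to 0.312 for Gata4 and 0.106 to 0.315 for Foxl2. Without hormone Gata4 lost its call when either control corticosterone array was left out, at adjusted p of 0.0508 and 0.0515. Akr1c14 lost its call with corticosterone without control corticosterone replicate 1, at 1.68 and adjusted p = 0.0886.

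Without hormone 3 of the 63 genes rose in KO cells and 0 fell by limma's test, with 10 higher and 13 lower at an unadjusted p under 0.05. Over the array 1.3% of genes rose and 0.577% fell, and of probe sets 0.666% rose and 0.311% fell. The 3 were Nr5a2, Gata4 and Cited2, a transcriptional co-regulator of the adrenal and gonad, which differed by 0.19 (SE 0.04, limma adjusted p = 0.0463) and was named after its value was seen. Cited2 lost its call when any of 5 arrays was left out, at adjusted p of 0.0791 to 0.12. The medians of the 4 lists lay between -0.067 and 0.077 in the 2 genotype comparisons.

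**Figure D4:**
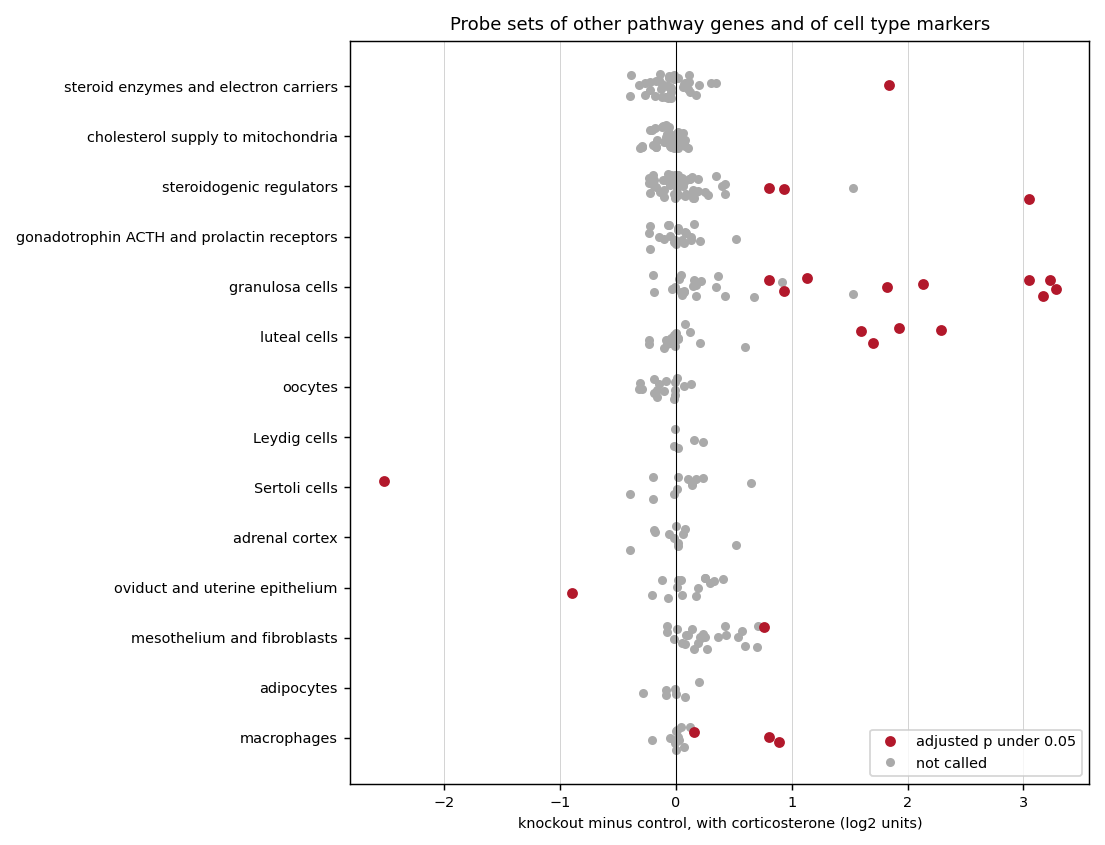
Difference of KO minus control with corticosterone (log2 units, horizontal axis) for each probe set of the 4 pathway lists and of 10 lists of cell type markers, 1 point per probe set and red where limma's adjusted p was under 0.05. The red points of the granulosa list lie from 0.80 to 3.28. No red point lies in the lists of cholesterol supply, receptors, oocytes, Leydig cells, adrenal cortex and adipocytes. The lists were drawn up with earlier results of these data known, so nothing is read from the numbers of red points.

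Markers of other cells were read in the same fit. Granulosa cells, the hormone making cells around the egg, were listed with 15 markers, of which 14 had a probe set. In KO cells with corticosterone 8 of the 14 rose and 0 fell by limma's test, and 10 were higher and 0 lower at an unadjusted p under 0.05. Over the array 1.21% of genes rose and 0.335% fell with corticosterone. The granulosa list was drawn up with earlier results of these data known, so nothing is read from its count. The list averaged 6.05 to 6.08 on the KO arrays, against 4.66 to 4.74 on the 3 control arrays and 5.89 on the array that stood apart. Bex4, a small X-linked gene, differed by 3.28 (SE 0.19, limma adjusted p = 2.05e-05), and Greb1, an oestrogen response gene, by 3.17 (SE 0.21, limma adjusted p = 5.49e-05) on 1 of its 4 probe sets and by 1.13 on another.

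Inha, the alpha subunit of the ovarian hormone inhibin, read 6.87 and 6.73 in KO cells with corticosterone and 6.86 and 6.88 in untreated KO cells. Control cells read 3.19 and 3.96 with corticosterone and 3.64 untreated, and 6.70 on the array that stood apart. It differed by 3.23 (SE 0.22, limma adjusted p = 8.11e-05) with corticosterone, and without hormone by 3.23 with 7 arrays and 1.7 with 8. Inhba, a beta subunit of inhibin and activin, differed by 2.13 (SE 0.25, limma adjusted p = 0.0032) on 1 of its 2 probe sets, the other differing by 0.36 (limma adjusted p = 0.695). Fshr and Amh were among the 6 listed markers that did not pass with corticosterone, whereas Foxl2 and Gata4, given above, did. Fshr read 2.91 to 3.39 on the KO arrays and 2.82 to 3.35 on the 3 control arrays. Amh read 5.49 to 5.69 on the KO arrays and 5.23 to 5.55 on those control arrays.

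Luteal cells, which make progesterone after ovulation, had 8 markers with a probe set, of which 3 rose and 0 fell by limma's test with corticosterone, and 4 were higher and 0 lower at an unadjusted p under 0.05, beside the same 1.21% of all genes that rose. Prss35, a secreted protease-like protein, differed by 2.29 (SE 0.09, limma adjusted p = 2.09e-06), Parm1, a mucin-like protein, by 1.93 (SE 0.10, limma adjusted p = 1.06e-05) and Sfrp4, a Wnt binding protein, by 1.7 (SE 0.13, limma adjusted p = 0.00014). The luteal list, too, was drawn up with earlier results of these data known, and nothing is read from its count. The list averaged 6.95 to 7.13 on the KO arrays, against 6.24 to 6.31 on the 3 control arrays and 7.38 on the array that stood apart. Without hormone 7 granulosa and 3 luteal markers rose, where 1.3% of all genes did. With 8 arrays none of these calls held, since 0 of 45037 probe sets passed limma's test in either genotype comparison, with 532 at an unadjusted p under 0.05 with corticosterone and 2110 without. The part of such cells in the levels of Cyp11a1, Hsd3b1 and Akr1cl was not tested.

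Of the remaining lists, some held no marker that passed, where over the array 1.21% of genes rose and 0.335% fell. At those shares lists this short would mostly hold none, so nothing is read from their counts. Insl3, Hsd3b6 and Lhcgr of the Leydig list and Akr1b7 and Sult2a1 of the adrenal list had no probe set. By limma's test 0 of 15 oocyte, 0 of 3 Leydig, 0 of 7 adrenal and 0 of 5 adipocyte markers passed with corticosterone, where at an unadjusted p under 0.05 there were 1 lower oocyte marker, 1 higher and 1 lower adrenal marker, and 0 of the Leydig and adipocyte lists. Among Sertoli cell markers 1 of 9 fell, the protease Ctsl on 1 of its probe sets, by 2.52 log2 units, and among oviduct and uterine markers 1 of 10 fell, the cadherin Cdh1, by 0.90. The mesothelium and fibroblast list had 1 of 13 higher, Col1a2, a collagen, by 0.76. The macrophage list had 2 of 10 higher, the scavenger receptor Marco by 0.80 and 0.89 on its probe sets and the endotoxin co-receptor Cd14 by 0.16.

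The 3 high probe sets followed each other over the 7 arrays, as a description with no test, since all of them were chosen for the same contrast. Pearson's r with Cyp11a1 1448804_at was 0.997 for Akr1cl 1423381_at and 0.978 for Hsd3b1. It was 0.882 for the second Akr1cl probe set and 0.826 for Fdx1. The points share 7 arrays that fall into 2 genotypes, so r mostly restates the difference between them.

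Among 1674 probe sets of 1 gene that spanned at least 1 log2 unit, the 10 genes whose profile was most like Cyp11a1, the steroid synthesis genes themselves left out of the ranking, were Pcolce, Ephx2, Nrn1, Ankrd1, Bex4, Prss35, Cemip, Clu, Parm1 and Pdk4, with r from 0.9944 to 0.9995 over the 7 arrays. Bex4, Prss35 and Parm1 were also on the marker lists above. With corticosterone these genes stood 1.68 (Pcolce, a helper of collagen processing) to 3.69 log2 units (Nrn1, neuritin, and Ankrd1, an ankyrin repeat protein) higher in KO cells.

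On the array left out these genes did not read alike. That 1 array stood apart in its Actb probe sets, and Star 1449201_at and Fdx1 also read low on it, at 3.95 and 7.15. Why that array reads as it does was not tested. On it Cyp11a1 read 4.40, Hsd3b1 4.51 and Akr1cl 3.28, each below every KO array. Pcolce read 9.91 there, against 7.53 to 7.77 on the KO arrays and 5.91 to 6.14 on the 3 control arrays. Prss35 read 12.23, Parm1 11.52, Ankrd1 8.62 and Pdk4, a mitochondrial kinase, 10.05, each above every KO array. Ephx2, soluble epoxide hydrolase, read 5.27 and Bex4 4.43, both near the control arrays. Nrn1 read 7.94, Cemip 7.34 and Clu 8.61, each between the 3 control arrays and the KO arrays. On that array the granulosa and luteal lists averaged 5.89 and 7.38, nearer to the KO arrays than to the 3 control arrays. Lists of other cells read high there too: the Leydig list averaged 7.83 there, against 6.49 to 6.81 on the other 7 arrays, the Sertoli list 7.68 against 5.73 to 5.97, and the mesothelium and fibroblast list 7.97 against 6.5 to 6.9. Within the granulosa list Greb1 1439568_at read 3.31 on it, below the 3 control arrays, so the granulosa markers did not all follow the average of their list.

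**Figure D5:**
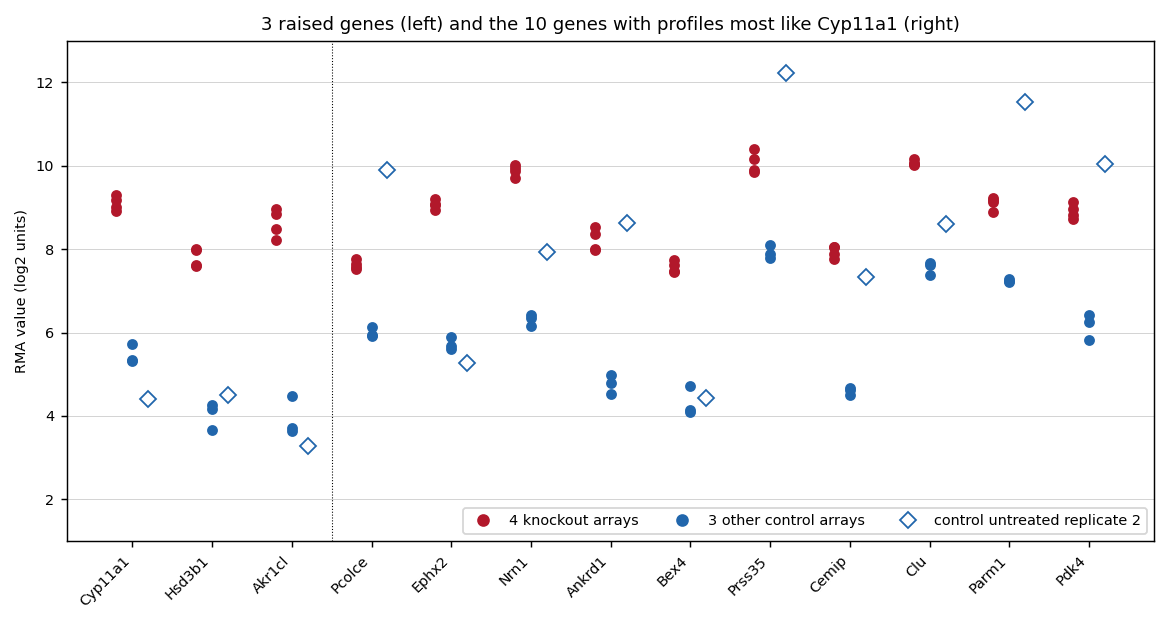
RMA values (log2 units, vertical axis) of Cyp11a1, Hsd3b1 and Akr1cl and, right of the dotted line, of the 10 genes with profiles most like Cyp11a1. Points are 4 KO arrays, 3 control arrays and, as a diamond, control untreated replicate 2. The diamonds of Cyp11a1, Hsd3b1 and Akr1cl lie at 4.40, 4.51 and 3.28, below every KO point, and those of Pcolce, Ankrd1, Prss35, Parm1 and Pdk4 lie above every KO point.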

How the data were processed

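RNA was measured on Affymetrix mouse arrays, 8 in all, labelled with the Ovation system per the labels' protocols. The deposited values are log2 levels, 1 per probe set and array, made by the authors with RMA in R 2.7 per the submitters' processing notes. RMA aligns the arrays, so cells that hold more RNA in all would look the same; array medians lay between 5.55 and 5.58.

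Of 45101 probe sets, 64 controls were left out. In the platform annotation 34945 of the rest had 1 gene, 932 several and 9160 none, and 34741 symbols were matched by gene ID to the GRCm38.p6 gene table. The symbols of the others are the older ones.

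Differences, SEs and p-values come from limma (version 3.58.1, R 4.3.3) fitted with a mean per group, a variance trend on the mean, and Benjamini-Hochberg adjustment over all 45037 probe sets, called under 0.05. The fit was tested on simulated data. The genes, lists, tests and the choice of 7 arrays were made with earlier results of these data known. The genes named are the 10 chosen genes, Nr3c2, pathway genes that passed with corticosterone and a fixed set of key receptors and enzymes, up to 5 markers per list that passed, Xist and the Y genes, and the 10 genes outside the chosen ones most correlated with Cyp11a1 among probe sets spanning at least 1 log2 unit. Alternatives were the arrays in the fit, array weights, the variance trend, 1 probe set per gene, a filter at 6 log2 units, quantile normalization, a replicate block and leaving out each array. Replicate numbers come from the titles and did not pair the samples.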

Additional observations from a re-analysis of the deposited data

How the results depend on the processing

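The differences of Cyp11a1 1448804_at, Hsd3b1 and Akr1cl 1423381_at kept their sign under every alternative run, between 3.35 and 5.27 log2 units with corticosterone over 17 fits and between 3.56 and 4.86 without hormone over 16. Without hormone the count of probe sets at least 1 log2 unit higher was 3 of 15, and 5 with all 8 arrays, with or without array weights. The 2 added were Star 1449201_at and Fdx1. For corticosterone in KO cells the count called was 0, and 2 with only the arrays compared. Leaving out single arrays gave 0 to 1. In control cells it was 0, and 1, Fdx1, with 1 probe set per gene or with dim probe sets left out. Of the other pathway genes with corticosterone 4 were called, 0 with all 8 arrays, 1 with no variance trend, 2 with dim probe sets left out, 2 with 5 arrays (chosen after seeing the data), and 1 to 4 leaving out single arrays. Without hormone 3 were called, 0 with all 8 arrays with or without weights, 1 with only the arrays compared, 1 with no trend, 1 with 5 arrays, and 1 to 5 leaving out single arrays. The cause was not tested.

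With 8 arrays 0 of all 45037 probe sets passed limma's test in either genotype comparison, where 532 with corticosterone and 2110 without hormone had an unadjusted p under 0.05. With the variance trend and 7 arrays 279 rose and 79 fell with corticosterone; with no trend 87 rose and 13 fell. For single probe sets 905 alternative values kept their call, 40 lost it, 7 gained it and 44 untested ones moved by more than 1 SD. No called value changed sign. Contrasts with untreated control cells could not be fitted without control untreated replicate 1.

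Same-numbered replicates have nothing stated in common beyond the number. Their deviations correlated at -0.177 between the 2 KO groups, and at 0.034 and 0.009 between control corticosterone and the KO groups. For untreated control cells, resting on the array that stood apart, the correlation was 0.318 with untreated KO cells. It was -0.229 with corticosterone KO cells and 0.002 with corticosterone control cells. So few values cannot decide whether same-numbered samples share a batch. With a replicate block 3 of 15 probe sets stood 1 log2 unit higher in both genotype comparisons and 0 were called for corticosterone in either genotype. The block left 3 pathway genes called with corticosterone and 1 without hormone, where Gata4 had adjusted p = 0.0611 and 0.0538. The crossed pairing of the KO arrays, chosen after seeing the data, called 0 of 15 for corticosterone and 4884 of all probe sets.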

Other observations

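Genes near Cyp11a1, Hsd3b1 and Akr1cl on the chromosome were read as well, chosen after values were seen. Within 250 kb of the 3 genes lay 25 genes with 35 probe sets. Their differences of KO minus control ran from -0.39 to 0.55 log2 units with corticosterone and from -0.32 to 0.91 without hormone. By gene, the 16 probe sets near Cyp11a1 ran from -0.39 to 0.55 with corticosterone, the 6 near Hsd3b1 from 0.02 to 0.30, and the 13 near Akr1cl from -0.29 to 0.22. None of these neighbours came near the 3.64 to 4.85 of the 3 genes themselves with corticosterone.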
